A study of Mus musculus with 86 samples.

Results

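The genes described here code for the nuclear-encoded subunits of the mitochondrial respiratory chain and ATP synthase, together with a few rows that share their symbol stems. They were chosen by symbol alone (Nduf with a, b, c, s or v, Sdha to Sdhd, Uqcr, Cox4 to Cox8, and Atp5), which gave 86 of the 12360 rows of a table of RPKM values. RPKM counts reads relative to transcript length and to the mapped reads of the cell, so levels of different genes can be set side by side. Of the 86 rows, 78 are subunits: 36 of complex I, 4 of complex II, 8 of complex III, 15 of complex IV and 15 of complex V. A further 6 are assembly or coupling factors (Ndufaf1 to Ndufaf4, Cox7a2l and Atp5s). The other 2 rows share only a symbol stem: Cox4nb, now called Emc8, and Atp5sl, now called Dmac2.

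The table covers 86 single cells from the metanephros, the permanent kidney, of wild-type mice of a mixed background strain at 12.5 dpc (days post coitum, Theiler stage 20). Kidneys of both sexes were pooled and dissociated with trypsin, and cells were captured on a Fluidigm C1 instrument, which gives each cell its own full-length cDNA library. No cell was treated and no animal is named, so the 86 cells are 1 sample and no test was made. SDs are over cells of that pool and are not errors between animals.

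The cells were divided into 4 groups by marker RPKM. Bud cells were the 7 cells with a Mal2 RPKM of at least 100 (lowest 1219, next cell 3.41). The ureteric bud is the branching epithelium that forms the collecting ducts. Among the other cells, a gene was called detected at an RPKM of at least 1. Cells that detected Six2, the transcription factor of nephron progenitors, fell into 10 that also detected Wnt4 or Lhx1, genes of early nephron formation, and 36 that did not. The lowest Six2 RPKM among detecting cells was 1.50 and the highest below the limit was 0.527. The 33 remaining cells detected Foxd1, a marker of the renal stroma, in 25 cells and Wnt4 or Lhx1 in 4. Foxd1 was also detected in 24 of the 36 Six2 cells without Wnt4 or Lhx1, 7 of the 10 with and 3 of the 7 bud cells.

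Complex I oxidizes NADH and complex II oxidizes succinate, and both pass the electrons to ubiquinone. Complex III hands them to cytochrome c, and complex IV passes them to oxygen. Complexes I, III and IV pump protons across the inner mitochondrial membrane, and complex V, the ATP synthase, uses the return flow to make ATP. The chain is assembled from subunits of nuclear and mitochondrial DNA. A search for mitochondrial DNA genes, by symbols that begin with mt-, found 0 rows, so they are not analysed here. Mature nephron tubules are known for a high demand on this chain, while early nephron progenitors are known for active glycolysis.

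Promoter sequence was not used in the choice by symbol, and some of these genes hold known regulatory words there. RefSeq promoter windows of 300 bases (250 before to 50 after the transcription start, build GRCm38.p6) were matched for 71 of the 86 genes, which gave 77 windows. Of these, 22 (28.6%) held GCGCANGCG, the main part of the site of NRF1, a regulator of nuclear-encoded mitochondrial genes. The same word was in 13.6% of the windows of all genes of the table, in 20.2% of those of its genes whose mean reached 100 RPKM, and in 6.25% of all 32851 windows. AAGATGGC, a word of the factor YY1, was in 15.6% of the 77 windows, against 4.48% for the table and 6.54% for its genes of high mean. CCGGAAG, the core of ETS-family sites such as those of GABP, was in 22.1%, against 17.8% and 24.1%, and TATAAA was in 7.79%, against 7.00% and 9.13%. Both strands were searched, with N for any base. Of the 77 windows, 43 (55.8%) held at least 1 of the NRF1, YY1 and ETS words, against 31.3% for the table and 43.7% for its genes of high mean. The share of the ETS and TATA words was thus no larger than among the genes of high mean, while the NRF1 and YY1 words were found more often. The genes of high mean were not taken without the members, and 62 of the 86 rows reach that mean. Windows of 1 gene can overlap, and a match is a description, not a bound site. The 21 matched genes with an NRF1 word had a median of their mean RPKM of 188, and the 50 without had 152.

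Promoter stretches of 100 bases that end just before the start are shown because they hold these words in members of different complexes. Capitals mark the words, and these genes all lie on the minus strand, printed 5′ to 3′ in gene direction. Sdha (complex II, chr13:74350241-74350340) holds 3 NRF1 words and Ndufb4 (complex I, chr16:37654369-37654468) holds 2. Sdhd (complex II, chr9:50603850-50603949) holds an NRF1 word and an ETS word. Atp5g2 (complex V, chr15:102671048-102671147) holds a run of 10 bases that matches the NRF1 word on both strands. Atp5j (complex V, chr16:84834977-84835076) holds a YY1 word and an ETS word. The stretch of another start of Atp5j (chr16:84835626-84835725), not shown, holds 0 NRF1, YY1 or ETS words.
Sdha: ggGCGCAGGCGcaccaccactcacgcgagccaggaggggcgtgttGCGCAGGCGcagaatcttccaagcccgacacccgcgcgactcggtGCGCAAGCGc
Ndufb4: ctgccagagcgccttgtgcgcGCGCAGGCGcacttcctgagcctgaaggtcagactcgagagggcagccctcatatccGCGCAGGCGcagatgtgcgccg
Sdhd: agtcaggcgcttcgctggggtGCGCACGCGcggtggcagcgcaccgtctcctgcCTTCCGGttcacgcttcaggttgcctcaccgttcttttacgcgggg
Atp5g2: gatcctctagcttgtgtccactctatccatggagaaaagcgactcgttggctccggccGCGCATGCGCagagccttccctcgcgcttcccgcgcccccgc
Atp5j: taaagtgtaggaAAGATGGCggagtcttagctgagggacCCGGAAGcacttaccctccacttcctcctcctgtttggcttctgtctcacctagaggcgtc

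Cells detected between 3458 and 7100 genes (median 6164), and 5 cells of few genes lay more than 3 median absolute deviations below the median. Read totals are not given, but low RPKM values move in steps of whole reads, which gives the depth of the cells relative to each other. Relative depth ran from 0.152 to 3.07, with group medians of 1.05 in bud cells, 0.904 and 1.02 in Six2 cells with and without Wnt4 or Lhx1, and 0.979 in remaining cells. The 4 shallowest cells (0.152 to 0.163, next 0.327) are all Six2 cells without Wnt4 or Lhx1. As a check of the groups, all 7 bud cells detected the epithelial cadherin Cdh1 and 6 detected the receptor Ret, and 11 of the 11 bud markers in the table were detected in at least 1 bud cell. One of them, Lhx1, was used to form the groups. The summed RPKM of the other 10 ranged from 639 to 2048 in bud cells, from 0 to 130 in Six2 cells without Wnt4 or Lhx1 and from 0 to 176 in remaining cells. In Six2 cells with Wnt4 or Lhx1 it was 11.6 at most, and Gata3, Krt8, Ret and Tfap2b were listed at 0 there. Markers overlapped between groups: 3 bud cells detected Six2, and 9 of 12 stromal markers were detected in at least 1 bud cell, with summed RPKM from 2.94 to 283 there, 109 to 784 and 86.9 to 881 in Six2 cells with and without Wnt4 or Lhx1, and 34.3 to 1755 in remaining cells. Their part in the comparisons of the respiratory chain was not tested.

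The respiratory chain rows took nearly the same share of each group's RNA. Of the summed RPKM of a cell, the 86 rows made up a median of 3.79% in bud cells (range 3.51% to 4.24%), 3.88% in Six2 cells with Wnt4 or Lhx1 (3.20% to 4.46%), 3.76% in Six2 cells without (2.86% to 4.84%) and 3.74% in remaining cells (2.94% to 4.74%). The ranges of the 4 groups overlapped widely. Over all 86 cells the highest share was 1.69 times the lowest, and the SD over cells was 9.51% of the mean. The same measure was 11.4% for the 77 cytosolic ribosomal protein rows, 20.4% for a list of 18 tricarboxylic acid cycle genes and 30.5% for a list of 17 glycolytic genes. These lists differ in the number of rows and in level, both of which bear on the spread. The lowest share was in a cell of 4739 detected genes and the highest in a cell of 5079, and both are Six2 cells without Wnt4 or Lhx1. The highest is also 1 of the 4 shallowest cells, which had shares of 3.60% to 4.84%. Without these 4 cells the median of their group was 3.74%.

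By complex, the subunits of complex V took the largest share, with a median of 1.15% over all cells, followed by complex I with 1.10%, complex IV with 0.853%, complex III with 0.447% and complex II with 0.157%. In bud cells the medians were 1.18% for complex V, 1.19% for complex I, 0.858% for complex IV, 0.473% for complex III and 0.172% for complex II. In remaining cells they were 1.12%, 1.16%, 0.871%, 0.436% and 0.150% in the same order. The medians of the 4 groups lay within the range of every group for each of the 5 complexes. The share of complex IV was higher in shallow cells, with 0.909% to 1.43% in the 4 shallowest cells and a median of 0.844% in the other 82, and its correlation with the log2 of relative depth was −0.40 over 86 cells and −0.24 without the 4. For complex II that correlation was 0.34 over 86 cells and 0.32 without them.

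**Figure D1:**
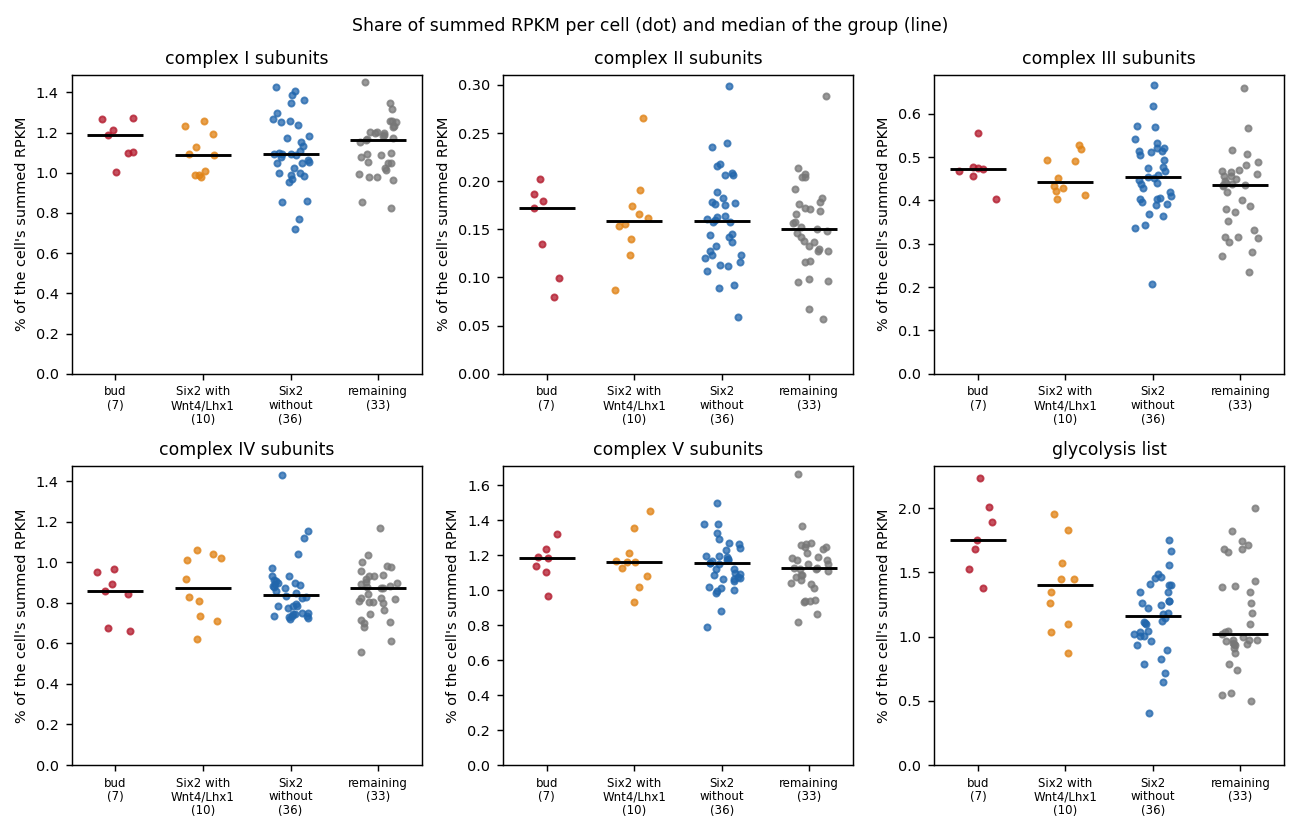
Share of the summed RPKM of each cell (vertical axis, percent, from 0) taken by the subunits of complexes I to V and by the glycolysis list, in 4 groups of cells (number in brackets); dots are cells and lines are group medians. The medians of each complex lie close together over the groups, as 1.18% in bud cells and 1.12% in remaining cells for complex V, while the glycolysis list has a median of 1.75% in bud cells and 1.02% in remaining cells.

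Complex I had the lowest typical level per gene. Its 36 subunits had means over 86 cells from 36.8 RPKM for Ndufv3, a small accessory subunit, to 309 ± 118 (SD) for Ndufa12, and the median of the subunit means was 135. All 7 nuclear-encoded core subunits, which carry the flavin and iron-sulphur clusters or sit near them, were missed in at least 1 cell, whereas 17 of the 29 accessory subunits were detected in all 86. The core subunits had means between 45.1 (Ndufs1, which carries several of the iron-sulphur clusters) and 158 (Ndufs8), with a median of 113, beside 136 for accessory subunits. Their median SD was 69.2% of the mean, and that of the accessory subunits 54.7%. The 4 assembly factors of complex I were lower, at means of 12.2 for Ndufaf3, 16.2 for Ndufaf4, 22.7 for Ndufaf1 and 82.5 for Ndufaf2. Ndufaf1 was detected in 42 cells and Ndufaf3 in 41, fewer than 50% of the 86. The row of Ndufb2 carries an identifier with a chromosome suffix, and how the authors counted genes with several loci is not given in the sources used here.

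Complex II, also the succinate dehydrogenase of the tricarboxylic acid cycle, has 4 subunits, and these differed in level. Sdhb, the iron-sulphur subunit, ranged from 18.3 to 644 RPKM with a median of 278 and was detected in all 86 cells. Sdhd, a membrane anchor, had a median of 189 (0 to 556), and Sdha, the flavoprotein that binds succinate, had a median of 101 (0.266 to 661). Sdhc, the other anchor, had the lowest median, 84.0 (0 to 278). Sdhd was detected in 83 cells, and Sdha and Sdhc in 82 each. The ranges of all 4 overlapped. The mean of Sdhb was 286 ± 115 (SD) and that of Sdhc 85.4 ± 58.9, which is 3.34-fold apart in this complex whose protein holds its subunits in equal number.

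Complex III had 8 matched subunits, with means from 79.1 ± 55.7 (SD) for Uqcrfs1, the Rieske iron-sulphur protein, to 397 ± 146 for Uqcrb. Uqcrc1 and Uqcrc2, the core proteins, had means of 298 and 160. Uqcrh, the hinge protein, had a mean of 328, and Uqcrq, Uqcr10 and Uqcr11, small subunits, had 232, 218 and 241. Detection was complete for 6 of the 8; Uqcrb was missed in 1 cell and Uqcrfs1 in 2. Cyc1, the cytochrome c1 subunit, has a symbol outside the rule, and its mean was 97.8 ± 69.6 (SD) with detection in 83 cells. The 2 lowest means among these were thus those of the Rieske protein and cytochrome c1, the nuclear-encoded subunits that carry electrons.

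Complex IV spanned the widest range of levels. Cox6a1 had the highest mean of all 86 rows, 675 ± 222 (SD), with every cell between 248 and 1507 RPKM. Ndufa4, first described with complex I and counted here with complex IV, had a mean of 554, Cox4i1 of 543 and Cox7c of 446. Cox6b1 had a mean of 334, Cox6c of 279, Cox8a of 219, Cox5b of 202, Cox5a of 197, Cox7a2 of 185 and Cox7b of 122. Of these 11 common subunits, 10 were detected in all 86 cells, and Cox5a was missed in 1. The 4 rare forms Cox6b2, Cox7a1, Cox4i2 and Ndufa4l2 had means of 15.0, 3.41, 3.34 and 0.863.

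Complex V, the ATP synthase, was the complex with the highest median of subunit means, 326 RPKM, and its 15 subunits were detected in all 86 cells. Of the catalytic F1 part, Atp5b, the beta subunit, had a mean of 656 ± 261 (SD), Atp5a1 (alpha) 401 ± 146, Atp5c1 (gamma) 394 ± 129, Atp5d (delta) 194 ± 95.4 and Atp5e (epsilon) 181 ± 107. The F1 head holds more copies of alpha and beta than of the other subunits. Alpha nevertheless lay next to gamma, with ranges of 13.7 to 845 and 159 to 826. Of the stalk, Atp5o (also known as OSCP) had 577 and Atp5h 453, while Atp5j had 309 and Atp5f1 182. The lowest was Atp5j2, with a mean of 42.9 ± 18.1 and a range of 7.21 to 121. The coupling factor Atp5s was detected in only 25 cells, up to 215 RPKM.

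The rotor ring of complex V is built from copies of a protein that 3 genes encode with different targeting sequences and the same mature product. Their summed RPKM had a median of 1139 over all cells. Atp5g3 made up a median of 39.4% of it, Atp5g2 31.9% and Atp5g1 28.1%. In bud cells the medians were 40.0%, 33.4% and 21.8%, and in Six2 cells without Wnt4 or Lhx1 38.9%, 31.5% and 29.8%. The order was the same in all 4 groups. These genes share sequence, and processed copies of many respiratory chain genes exist in the genome, so how their reads were divided depends on a counting step that is not given in the sources used here.

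**Figure D2:**
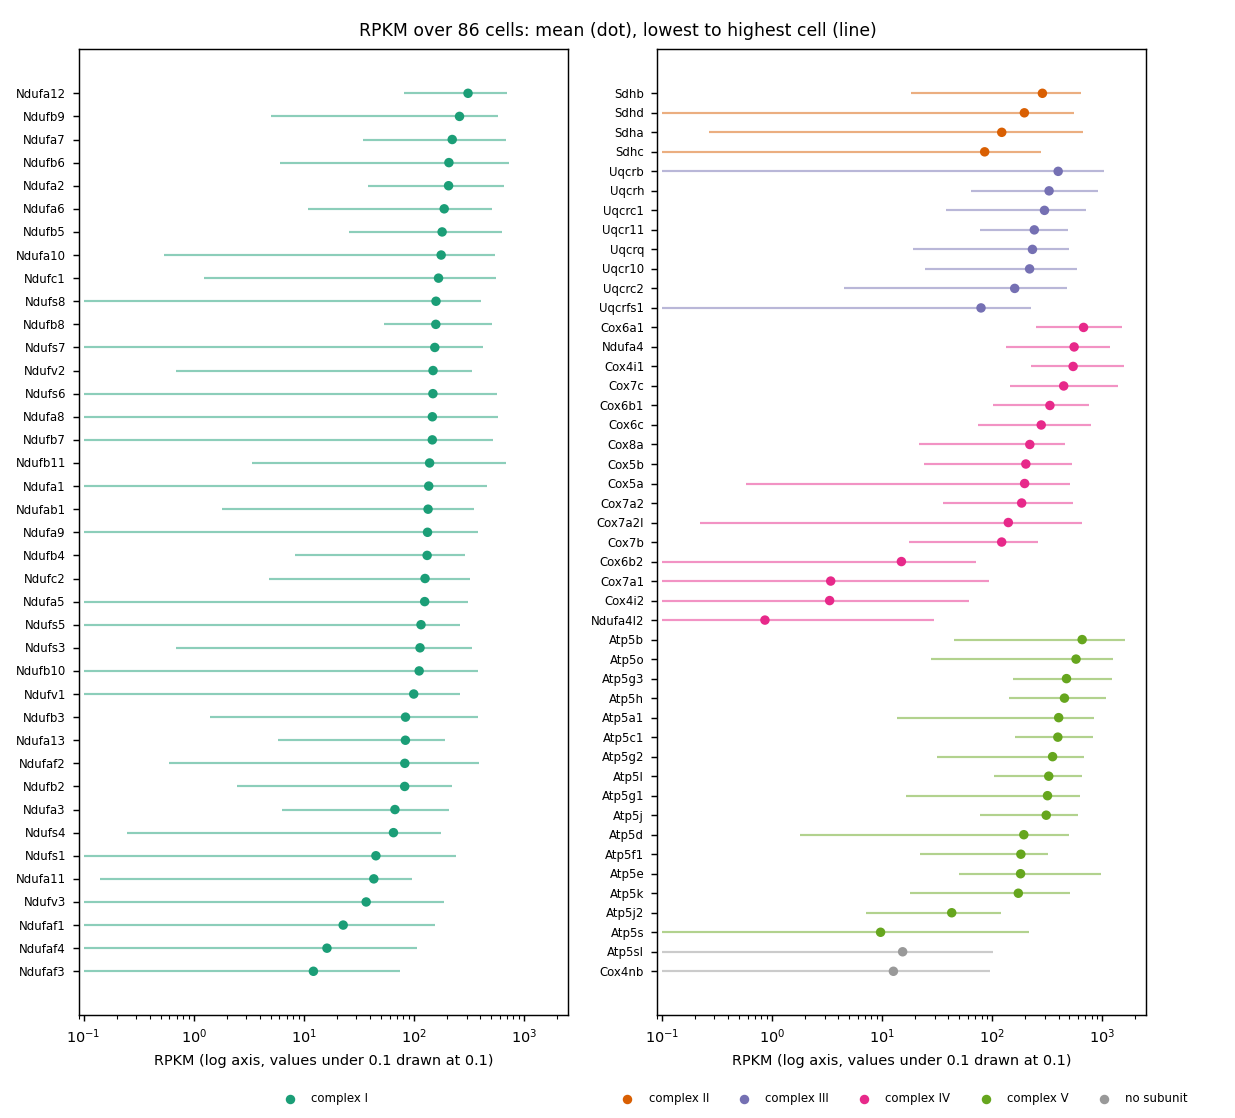
RPKM (horizontal log axis, values below 0.1 drawn at 0.1) of the rows over 86 cells, with 1 of the 86 rows not drawn; dots are means, lines run from the lowest to the highest cell, and colours mark the complexes. The highest means are those of Cox6a1 (675) and Atp5b (656), whereas Cox7a1, Cox4i2 and Ndufa4l2 have means under 4 RPKM and lines that begin at 0.1.

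At a mean of 10 RPKM or more the median spread over cells was below that of all genes in the same range of means. For the 4 rows of lower mean it was above. The ranges are wide and spread falls with the mean, so rows and genes of 1 range are not matched in level. For the 62 rows with a mean of at least 100 RPKM the median SD was 46.7% of the mean, beside 53.4% for all 755 genes at that level, and 71.0% were detected in all cells, beside 63.6%. For the 20 rows with a mean from 10 to below 100 it was 77.8%, beside 126% for 4596 genes, and 25.0% were detected in all cells, beside 4.37%. For the 4 rows with a mean below 10 it was 358%, beside 280% for 7009 genes. Atp5j2 and Ndufs1 show the extremes at 1 level. Their means were 42.9 and 45.1, but the SD was 18.1 for Atp5j2, which was detected in all 86 cells, and 45.9 for Ndufs1, detected in 80. At high level the largest spread was that of Sdha, at 86.6% of the mean, and the smallest that of Atp5j, at 30.9%.

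**Figure D3:**
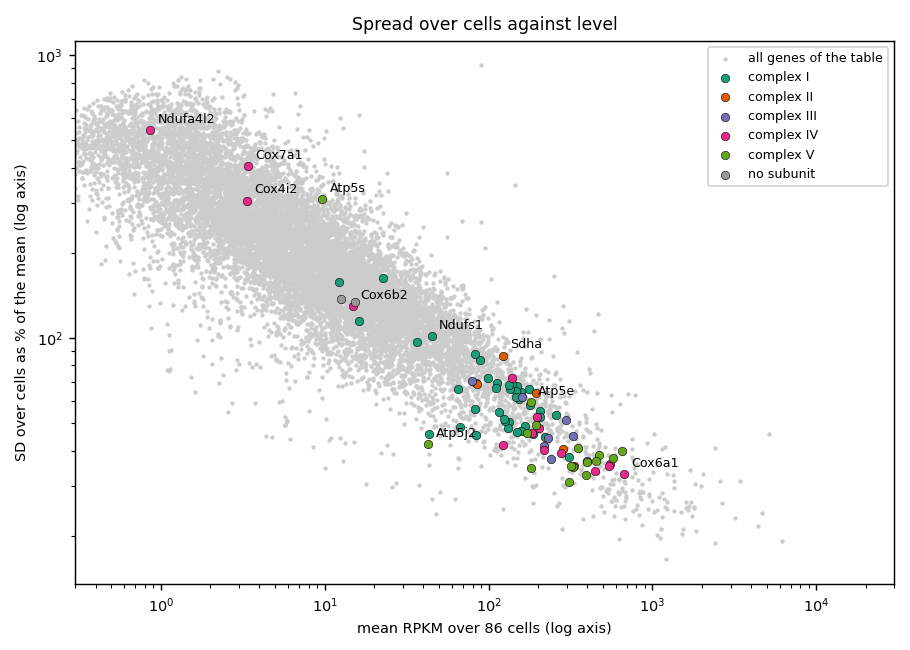
SD over 86 cells as a percentage of the mean (vertical log axis) against mean RPKM (horizontal log axis, means below 0.3 not drawn) for all genes (grey) and for the 86 rows coloured by complex. The rows follow the trend of all genes, with Atp5j2 low in the cloud at a mean of 42.9 and Sdha high at 86.6% of its mean.

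Levels of the complexes moved together only loosely from cell to cell. On the mean log2(RPKM + 1) of their subunits, all 10 pairs of complexes had a positive Pearson correlation over 86 cells, from 0.18 (III and IV) to 0.49 (I and II). Spearman values ran from 0.05 (II and IV) to 0.44 (I and IV). Within the 36 Six2 cells without Wnt4 or Lhx1 the Pearson values ran from −0.01 (II and III) to 0.66 (I and V), and within the 33 remaining cells from 0.18 to 0.56. The number of genes detected moved with the mean log2(RPKM + 1) over 86 cells, with a correlation of 0.68 for complex I and 0.20 for complex V. Shares of summed RPKM carry less of that link over 86 cells (between −0.13 and 0.03). Within the 33 remaining cells it was −0.34 for complex V, beside 0.06 on the mean log2(RPKM + 1), and −0.25 for complex I, beside 0.78. On shares over 86 cells, the highest value between complexes was 0.54 for IV and V (Spearman 0.46), then 0.37 for III and V. Complexes II and IV had −0.14. Without the 4 shallowest cells the value for IV and V was 0.48 and that for III and IV went from 0.32 to 0.20. The cells share 1 pool and a common RPKM scale, and no p-value is given. The share of all 86 rows had a correlation of 0.40 with the share of cytosolic ribosomal proteins and of −0.02 with the glycolysis list. Without the 4 shallowest cells these were 0.27 and 0.01, and within the 33 remaining cells the first was 0.25. With other lists it was −0.21 (tricarboxylic acid cycle), −0.17 (G2/M) and −0.06 (mitochondrial ribosomal proteins) over 86 cells. For G2/M it was −0.48 within the 33 remaining cells and −0.17 within the 36 Six2 cells without Wnt4 or Lhx1.

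Bud cells and all other cells differed little in these genes. The log2 ratio of (mean RPKM + 1), bud over other, had a median of 0.09 over 82 rows with a mean of at least 10 (53 above 0 and 29 below), beside −0.08 over all genes at that level. Past 1.5-fold were 2 of the 82 rows higher in bud cells and 3 lower, while of all genes at that level 13.2% were higher and 25.3% lower. Among the 62 rows with a mean of at least 100, 1 was past 1.5-fold higher and 0 lower, beside 6.23% and 7.81% of all genes there. Over rows of any level, 2 of 83 were higher and 4 lower, beside 19.2% and 31.4% of all genes, and 3 rows listed at 0 in bud cells have no ratio. By complex the median was 0.14 for I, −0.06 for II, 0.10 for III, 0.06 for IV (12 subunits) and 0.03 for V. The members past 1.5-fold are thus fewer than the background share, and mostly rows of low mean.

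Ndufb7, an accessory subunit, had a median of 209 in bud cells (67.4 to 324) and 121 in others (0 to 516). The ranges overlapped, and the log2 ratio was 0.60, just past 1.5-fold. Ndufaf4, an assembly factor, had a median of 27.6 in bud cells (0.391 to 72.3) and 10.1 in others (0 to 106), with a log2 ratio of 0.86.

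In complex II the ratios ran from −0.38 for Sdha to 0.11 for Sdhb, and in complex V from −0.26 for Atp5c1 to 0.48 for Atp5g2. In complex III, Uqcrq had a median of 339 in bud cells (234 to 426) and 214 in others (19.1 to 494), a log2 ratio of 0.51. Uqcrh, in the same complex, had 277 (163 to 320) and 314 (64.4 to 922), a log2 ratio of −0.32. In complex IV the ratios ran from −0.65 for Cox6b2, detected in 3 of 7 bud cells and 48 of 79 others, to 0.27 for Cox5a. Atp5s, below a mean of 10, was detected in 0 of 7 bud cells, which allows a share of up to 42.9%, and in 25 of 79 others. Cox4nb, which is no subunit, had a median of 3.39 in bud cells (0.855 to 12.1) and 6.96 in others (0 to 94.6), a log2 ratio of −1.34. Its gene (mm9, chr8:123177814-123192012) ends 178 bases from Cox4i1 (mm9, chr8:123192190-123198109), which lay above it in 86 of 86 cells and had a median of 521 in bud cells and 514 in others.

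Other genes of energy metabolism give the setting for this comparison. The counts of these lists stand beside 19.2% of all genes past 1.5-fold higher in bud cells and 31.4% lower. Of 17 glycolytic genes, 9 were past 1.5-fold higher in bud cells and 1 lower (median log2 ratio 0.67). Among those with a mean of at least 10 the ratios ran from Eno3 at −0.33 to Ldhb at 1.23, and the lower 1 was Pfkp, at a mean RPKM of 0.00998 in bud cells and 0.861 in others. The share of the list had a median of 1.75% in bud cells (1.38% to 2.24%) and 1.13% in others (0.402% to 2.00%), and these ranges overlap. Of 18 tricarboxylic acid cycle and pyruvate dehydrogenase genes, 2 were past 1.5-fold higher and 5 lower (median −0.11), from Dlst, of the oxoglutarate dehydrogenase, at −1.53 to Cs, citrate synthase, at 0.73. Electron carrier genes had a median of −0.03 over 14 rows, with 2 past 1.5-fold higher and 5 lower. Of 22 assembly factors outside the rule, 3 were past it higher and 8 lower (median 0.05). Of 15 regulators of mitochondrial biogenesis, 3 were past it higher and 6 lower (median 0.00). Mitochondrial ribosomal proteins had a median of 0.05 over 75 rows, with 13 and 7 past it. Cytosolic ribosomal proteins had 0.06 over 77 rows, with 0 past it in either direction. Cyc1 had a log2 ratio of 0.06. The hypoxia response list had a median of 0.13 over 7 rows, with 1 past 1.5-fold higher and 3 lower, and the G2/M list 0.37 over 20 rows, with 5 and 1.

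Among Six2 cells, those with Wnt4 or Lhx1 were compared with those without, a split by these genes alone. The summed RPKM of 9 induced nephron markers, Wnt4 and Lhx1 among them, had a median of 264 in cells with (16.2 to 513). It was 47.7 in Six2 cells without (0.168 to 614) and 88.4 in remaining cells (4.81 to 1790), so the ranges overlapped. One of these markers, Pax8, was detected in 7 of the 10 Six2 cells with and 10 of the 36 without. The median log2 ratio was 0.01 over the 82 rows with a mean of at least 10, beside −0.02 over all genes at that level. Past 1.5-fold were 3 rows higher and 4 lower, while 11.1% and 16.7% of all genes at that level were. Among the 62 rows with a mean of at least 100, 0 were higher and 1 lower, beside 2.25% and 2.52%. Over 85 rows of any level, 4 were higher and 4 lower, beside 16.7% and 24.3% of all genes. The median was 0.00 for complex I, 0.04 for II, 0.10 for III, 0.06 for IV (12 subunits) and −0.02 for V. Cells with Wnt4 or Lhx1 detected a median of 6750.5 genes and those without 6106.

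At a mean of at least 10, 8.33% of the 36 complex I subunits and 8.33% of the 12 complex IV subunits were past 1.5-fold in either direction. Ndufaf3 had a median of 27.6 in cells with Wnt4 or Lhx1 (0 to 63.0, detected in 8 of 10) and 0 in those without (0 to 73.9, detected in 12 of 36). The ranges overlapped from 0 upwards, and the ratio of (mean RPKM + 1) was 2.63-fold. Ndufaf1 had medians of 24.7 (0 to 153) and 2.64 (0 to 112), a log2 ratio of 0.80. Against these, Ndufs3, a core subunit of the iron-sulphur arm, had medians of 65.7 (4.61 to 155) and 117 (0.699 to 325), a log2 ratio of −0.79. Ndufs4, an accessory subunit of the same arm, had 36.6 (5.44 to 96.0) and 75.7 (1.83 to 174), a log2 ratio of −0.76. The ranges of both overlapped between the groups.

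In the other complexes, at a mean of at least 10, the ratios ran from −0.25 (Sdhb) to 0.35 (Sdhd) in complex II, from −0.27 (Uqcrc1) to 0.34 (Uqcr11) in III, and from −0.13 (Atp5e) to 0.28 (Atp5g2) in V. In complex IV they ran from −0.66 for Cox6b2 to 0.29 for Cox6c. Cox4nb, no subunit, had −0.60. Cox7a1, below a mean of 10, was detected in 3 of 10 and 2 of 36 cells, with a log2 ratio of 1.28. Cyc1 had means of 148 ± 61.9 and 101 ± 80.4 (SD), a log2 ratio of 0.54. The glycolysis list had a median of 0.15 over 16 rows, with 2 past 1.5-fold in each direction, and ran from Pfkm at −1.57 to Ldha at 0.89 among genes with a mean of at least 10. The tricarboxylic acid cycle list had 0.10, with 2 past it higher and 1 lower. Of all genes, 16.7% were past 1.5-fold higher and 24.3% lower. Medians were −0.04 for assembly factors, −0.01 for electron carriers, −0.10 for biogenesis regulators, 0.12 for mitochondrial and −0.04 for cytosolic ribosomal proteins. They were 0.40 for the hypoxia response over 8 rows, with 3 past 1.5-fold higher, and 0.20 for G2/M, with 2.

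Six2 cells without Wnt4 or Lhx1 were also set beside the remaining cells. Foxd1 was detected in 24 of these 36 Six2 cells and in 25 of the 33 remaining cells, so it does not set the groups apart. This comparison and the one before share the Six2 cells without Wnt4 or Lhx1, and the bud comparison includes every cell, so they are not independent. The median log2 ratio, Six2 over remaining, was 0.03 over 82 rows, beside 0.02 over all genes at that level. Past 1.5-fold were 1 row higher and 1 lower, while 11.9% of all genes at that level were higher and 11.9% lower. Among the 62 rows with a mean of at least 100, 0 were higher and 1 lower, beside 3.18% and 4.77%. Over all 86 rows, 1 was higher and 1 lower, beside 17.5% and 17.9% of all genes. The median was −0.07 for complex I, 0.07 for II, 0.15 for III, 0.11 for IV (12 subunits with a mean of at least 10, and 0.03 over all 15) and 0.03 for V.

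Ndufs6 (mm9, chr13:73457324-73465930), an accessory subunit that holds a zinc ion, had a median of 105 in Six2 cells without Wnt4 or Lhx1 (4.52 to 371) and 185 in remaining cells (0 to 567). The ranges overlapped almost fully, the means were 110 ± 78.4 and 190 ± 116 (SD), and the log2 ratio was −0.79. Its value lay at 129 (0 to 256) in Six2 cells with Wnt4 or Lhx1 and at 152 (83.1 to 299) in bud cells, so the 4 medians are in the order Six2 without, Six2 with, bud and remaining, and neighbours in it differ by less than their SDs. Ndufaf4 had a median of 11.4 (0 to 106) in Six2 cells without Wnt4 or Lhx1 and 7.25 (0 to 41.7) in remaining cells, a log2 ratio of 0.91, and was detected in 31 of 36 and 20 of 33 cells. The ratios of the other complexes ran from 0.02 (Sdha) to 0.21 (Sdhd) in II, from −0.07 (Uqcrc2) to 0.49 (Uqcrfs1) in III, from −0.22 (Cox6c) to 0.30 (Cox7a2l) among rows of IV, and from −0.46 (Atp5e) to 0.33 (Atp5b) in V. The highest Atp5e value, 970, was in a remaining cell, beside a median of 196 there. For the G2/M list, 9 of 20 genes were past 1.5-fold higher in the Six2 cells (median 0.53), and for glycolysis 1 of 17 (median −0.04). Of all genes, 17.5% were past 1.5-fold higher. The other lists had medians of −0.03 for the tricarboxylic acid cycle, 0.00 for assembly factors, −0.19 for electron carriers, −0.26 for biogenesis regulators, 0.04 for mitochondrial and 0.19 for cytosolic ribosomal proteins and −0.05 for the hypoxia response.

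**Figure D4:**
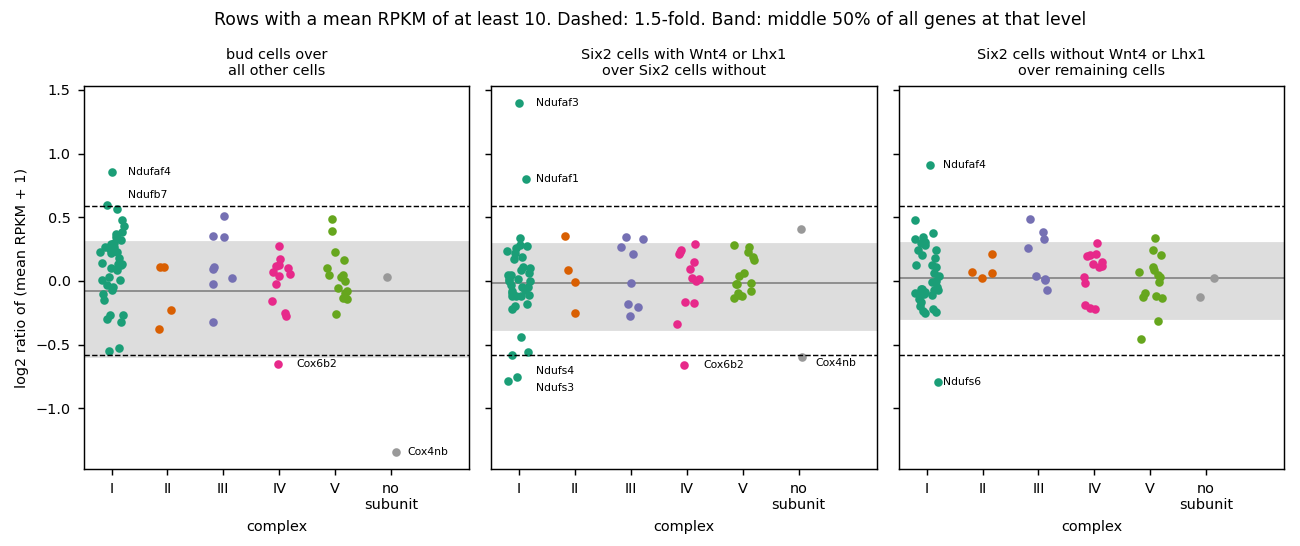
Log2 ratio of (mean RPKM + 1) of the 82 rows with a mean of at least 10, by complex, in 3 comparisons of cell groups, with 1 row not drawn; dashed lines mark 1.5-fold, the grey line and band the median and the middle 50% of all genes at that level, and names are given past 1.5-fold. Most rows lie inside the band, and the rows drawn outside the dashed lines are the 4, 6 and 2 named.

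Several complex IV subunits have forms that are known from particular tissues, and these were rare. Cox4i2, known from lung and from oxygen-responsive cells, was detected in 14 cells with a median of 12.5 RPKM there and a highest value of 61.2. Cox4i1 was detected in all 86, and its mean was 163 times that of Cox4i2. Cox7a1, the form of heart and skeletal muscle, was detected in 10 cells, up to 92.6, and the mean of Cox7a2 was 54.2 times higher. Cox6b2, known from testis, was detected in 51 cells, up to 70.9, and the mean of Cox6b1 was 22.3 times higher. Ndufa4l2, a hypoxia-induced relative of Ndufa4, was detected in 3 cells, between 17.1 and 29.6, and the mean of Ndufa4 was 642 times higher. In 1 cell Cox7a1 lay above Cox7a2 (55.9% of their sum), and no cell showed this for the other 3 pairs. Cox6a2 and Cox8c match the choice by symbol but are not among the 86 rows, so they could not be examined.

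By group, Cox4i2 was detected in 0 of 7 bud cells, 2 of 10 and 4 of 36 Six2 cells with and without Wnt4 or Lhx1, and 8 of 33 remaining cells. Cox7a1 was detected in 0, 3, 2 and 5 cells, Ndufa4l2 in 0, 0, 1 and 2, and Cox6b2 in 3, 7, 23 and 18, in the same order. A count of 0 of 7 allows a share of up to 42.9% and a count of 0 of 10 up to 30.0%, for counting error only, so no difference from bud cells was detectable at this number. Rgs5 is a marker of pericytes and other mural cells and was detected in 35 cells. Cox4i2 was detected in 9 of these 35 and in 5 of the other 51, Ndufa4l2 in 3 and 0, Cox7a1 in 5 and 5, and Cox6b2 in 24 and 27. This split by Rgs5 was chosen with the values known. The common form had a higher median where the rare form was found in 2 pairs and a lower one in the other 2. Cox4i1 had a median of 551 in the 14 cells with Cox4i2 and 512 in the other 72, and Cox6b1 had 331 in the 51 cells with Cox6b2 and 310 in the others. Cox7a2 had 152 in the 10 cells with Cox7a1 and 178 in the others, and Ndufa4 had 372 in the 3 cells with Ndufa4l2 and 549 in the others.

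**Figure D5:**
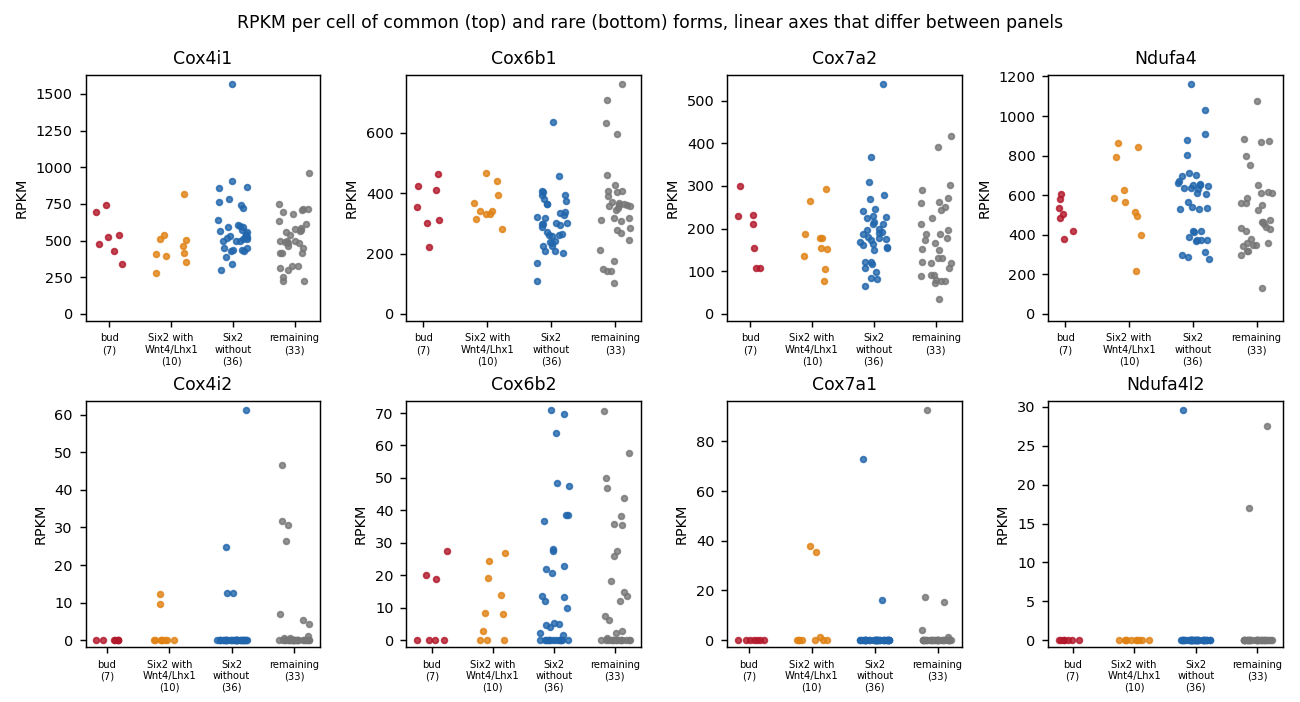
RPKM per cell (linear axes that differ between panels) of Cox4i1, Cox6b1, Cox7a2 and Ndufa4 (top) and of their rare relatives Cox4i2, Cox6b2, Cox7a1 and Ndufa4l2 (bottom) in 4 groups of cells. The top panels show every group at high values, as Cox4i1 between 223 and 1570 in all cells. In the bottom panels most dots of Cox4i2, Cox7a1 and Ndufa4l2 lie at 0, and all those of bud cells do. Cox6b2 was detected in 51 of the 86 cells, 3 of them bud cells.

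A second table of the authors lists 450 genes with their own fold between cells they call six2only and six2andcited1. None of the 86 rows is among them (0 of 450 genes), where a size of 3.64% of the first table corresponds to 3.13 rows. That number takes no account of level or fold, so it is not a like comparison. The smallest fold listed is 2.02 in size, and 62 of the 86 rows have a mean of at least 100. The authors' deposited table does list related genes: Cyc1 at −2.38, the ubiquinone synthesis gene Coq9 at −12.2, and Etfdh, which feeds electrons to ubiquinone, at 5.15. It also lists Dlat, of the pyruvate dehydrogenase, at 4.06, Tfb2m, a mitochondrial transcription factor, at 6.52, and Peo1, of the biogenesis regulators, at 10.8. Mrpl49 and Mrpl43, mitochondrial ribosomal proteins, are at −4.04 and 3.18, and Higd1a, of the hypoxia response list, is at 2.03. These are signed folds as deposited, labelled six2only against six2andcited1. A positive sign is read here as higher in six2only. Cells 47 and 57, which are bud cells here, are among the cells of that second table. The rule by which the authors chose its genes is not given in the sources used here.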

How the data were processed

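The values are RPKM as deposited by the authors. The table keeps genes that pass an RPKM of 3 in 3 or more cells, as its header and values show, which leaves 12360. The submitters' processing notes name TopHat 1.4.1, DESeq and mm9 without their roles; the counter and its handling of paralogs are not given in the sources used here. Group ratios are log2 of (mean RPKM + 1), called past 1.5-fold, with no ratio where a group is at 0. Cells of 1 pool are not replicates. No doublet caller was run. Relative depth is the commonest ratio of RPKM below 5 between cells, against 10 reference cells (99.9% of estimates within 0.01 natural log units of the cell's median); absolute depth is unknown. The members, lists and groups were chosen with earlier results of these data known. Named were, per complex, the highest and lowest member by mean and by ratio (mean of at least 10), every member detected in under 50% of cells, the isoform pairs and Sdha to Sdhd. Of the other lists, extremes were printed only for glycolysis (bud and Wnt4 or Lhx1 comparisons) and the tricarboxylic acid cycle (bud comparison). All further members printed were chosen after their values were seen. The values of 1 member are not reported here, and counts, medians and shares include it. Alternatives were other pseudocounts, scalings, detection limits, cell filters and row sets. The calculations were tested on simulated data. Python 3.11.15, numpy 2.4.6, pandas 2.3.3, scipy 1.17.1 and matplotlib 3.10.9 were used. Promoter windows are from RefSeq (GRCm38.p6). The RPKM rows are in mm9 and were joined to the windows by gene identifier only, not by position. The promoter words were chosen with results known. A form of the NRF1 word 1 base longer was searched first and its shares were seen; it was then shortened for reasons of format, and only the shorter word is reported.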

Additional observations from a re-analysis of the deposited data

How the results depend on the processing

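Over all alternatives the median log2 ratio of the members lay between 0.04 and 0.16 for bud over other cells, −0.00 and 0.13 for Six2 cells with over without Wnt4 or Lhx1, and −0.01 and 0.13 for Six2 over remaining cells. Of 138 values recomputed, 118 moved by less than the spread between cells or 1.5 times, and 20 counts of members past 1.5-fold moved more; the cause was not tested. Taking the difference of mean log2 values gave 11 members higher in bud cells and 7 higher in Six2 than in remaining cells, but 25.2% and 14.2% of all genes were then called that way (13.3% and 8.14% of the members), and the median of all genes with a mean of at least 10 was 0.14 and 0.16. In each of the 76 counts under an alternative, the share of members past 1.5-fold was below that of all genes under the same setting. These sets are not matched in level. All genes included 7009 with a mean below 10 RPKM, where their median SD was 280% of the mean, beside 4 members. Because spread falls with the mean, these counts cannot show how members compare with genes of like level. Only subunits gave 1 higher and 2 lower in bud cells, 2 higher with Wnt4 or Lhx1 and 0 higher over remaining cells. A pseudocount of 10 gave 1 higher in bud cells, 2 lower with Wnt4 or Lhx1 and 0 higher over remaining cells, and a pseudocount of 0.1 gave 4 lower over remaining cells. An equal summed RPKM gave 1 higher in bud cells, and an equal upper quartile 2 lower with Wnt4 or Lhx1. For Six2 over remaining cells, a detection limit of 5 gave 3 higher and 2 lower, any RPKM above 0 gave 3 lower, and leaving out cells of few genes gave 3 lower. Chosen after seeing the data, leaving out remaining cells with Wnt4 or Lhx1 gave 2 higher and 3 lower, keeping only those with Foxd1 gave 3 higher and 2 lower, and leaving out the 4 shallowest cells moved no count or median by that much. No paired analysis was possible because all cells come from 1 pool and no test was made.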
